A study of Mus musculus with 4 samples.

Results

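Insulin-like growth factor (IGF) signalling was followed through 9 genes, which encode the ligand Igf1, the receptors Igf1r and Insr and the binding proteins Igfbp2, Igfbp3, Igfbp4, Igfbp5, Igfbp6 and Igfbp7. They were chosen by gene symbol, and all 9 were among the 21862 genes with a symbol listed once in every library. RNA was sequenced from cells of the mouse neural progenitor line N31 grown on soft (0.5 kPa) or stiffer (12 kPa) matrices over type I collagen (control NPCs), and from N31 cells that carried a retroviral short hairpin RNA against the transcription factor Srf, shSrf#1, on the same matrices (shSrf NPCs). Each of the 4 conditions had 1 library, so differences could not be checked against replicates and carry no p-value. All groups derived from this single line, which was made by differentiating iPSCs and carries Dox-inducible reprogramming factors, and all were kept without EGF and bFGF in a medium that contained insulin. The virus-infected cells of the study were selected with puromycin, and whether the control NPCs here carried a control vector is not given in the sources used here.

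IGF1 and IGF2 are small secreted hormones that bind the receptor tyrosine kinase IGF1R, which promotes growth and survival through the PI3K, Akt and mTOR kinases. The insulin receptor is closely related and also binds IGF2. The IGF-binding proteins hold IGFs outside the cell, where they prolong their life and limit or aid their access to the receptor, and proteases that cut the binding proteins set the ligand free. In the nervous system IGFs support the growth of progenitors and the survival of neurons.

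Values are FPKM, read numbers corrected for transcript length and for library depth, so that levels can be set side by side between genes and libraries. Depth is not stated and was estimated from the steps between low values as between 24100000 reads (control NPCs, 12 kPa) and 62300000 reads (shSrf NPCs, 12 kPa). Standard errors (SE) below are those of counting at this estimated depth and do not cover culture or library preparation. A gene was counted as higher or lower when it had an FPKM above 2 in all 4 libraries, as 10489 genes did, and a ratio beyond 1.1-fold. In bulk RNA fewer cells of a type and less RNA per cell cannot be told apart. At 0.5 and 12 kPa, the targeted gene Srf stood at 34.4 and 35.6 FPKM in control and at 16.2 and 17.4 in shSrf NPCs, and its target Acta2 (smooth muscle actin) at 321 and 322 against 6.74 and 8.96.

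The labelled cell type was checked on marker lists. Of 12 neural progenitor markers, 6 or 7 were above an FPKM of 2 in each library, while Sox1, Hes5 and Olig2 were listed at 0 in all 4 and Fabp7 at 0 in both control libraries. Between the cell populations these markers went both ways. At 0.5 and 12 kPa, Sox2 stood at 4.29 and 5.49 in control and at 19.1 and 20.4 in shSrf NPCs. Pax6, Msi1 and Vim were also higher in shSrf NPCs. Nes stood at 51.6 and 36.1 in control and at 16.4 and 15.5 in shSrf NPCs, and Prom1 and Slc1a3 were also lower. Of 10 mesenchymal markers, 9 or 10 were above 2, with a summed FPKM between 3039 and 3339, most of it from Col3a1. Single markers differed in both directions. Dcn stood at 9.22 and 8.62 in control and 26.9 and 26.2 in shSrf NPCs, and Thy1 at 5.37 and 3.60 against 2.06 and 1.93. The cells are therefore named by their line and not by these markers. The summed FPKM of 6 astrocyte markers was 404 and 341 in control and 194 and 209 in shSrf NPCs, most of it from Gja1, with Gfap and Aqp4 under 0.5 in every library, and that of 6 neuronal markers was 52.3 and 56.4 against 120 and 115, with Rbfox3 at 0. Most of the neuronal sum came from Map2 and Stmn2. Tubb3 stood at 3.34 and 2.63 in control and 3.39 and 3.93 in shSrf NPCs, and Dcx and Elavl3 were near the floor in every library. Sums over 6 oligodendrocyte lineage markers stayed between 18.2 and 21.0, over 6 endothelial markers between 3.25 and 6.62 and over 6 microglial markers under 0.35. The part of these markers in the differences below was not tested.

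Per length, transcripts of Igfbp4, Igfbp3, Igfbp6 and Igfbp7 were more abundant than those of either receptor or of Igf1 in every library. Igfbp4 was the highest of the 9 genes throughout, Igfbp3 and Igfbp6 came next, and Igf1 and Igfbp2 were at the bottom in control NPCs. In control NPCs the order of levels was the same on both matrices, from Igfbp4 over Igfbp3, Igfbp6, Igfbp7, Igf1r, Igfbp5 and Insr to Igf1 and Igfbp2. Igfbp5 and Insr lay within counting error of each other in both control libraries, as did Igf1 and Igfbp2 on the 12 kPa matrix. In shSrf NPCs Igfbp6 stood above Igfbp3, and Igf1 stood above Igfbp5.

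**Figure D1:**
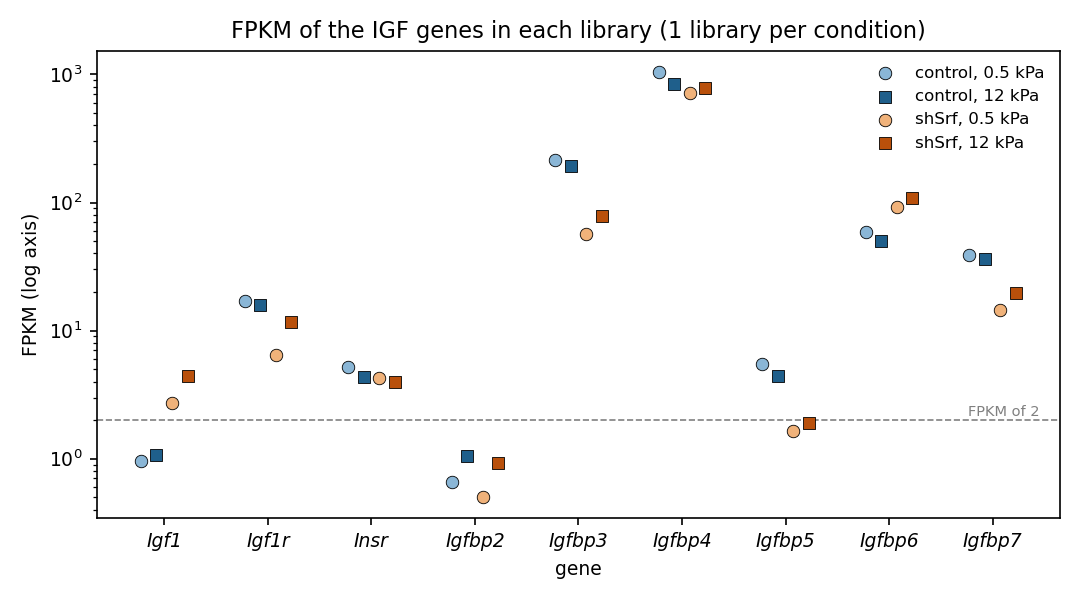
FPKM on a log axis of the 9 IGF genes in each of the 4 libraries, with 1 point per library and a dashed line at an FPKM of 2. Igfbp4 lies between 712 and 1045, Igfbp3 lies higher and Igfbp6 lower in both control libraries than in both shSrf libraries, and Igf1 passes 2 in the shSrf libraries alone.

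Among the 6 members above the minimum in all 4 libraries, Igf1r, Igfbp3 and Igfbp7 were lower and Igfbp6 was higher in shSrf than in control NPCs on both matrices. At 0.5 kPa, 5 of the 6 were lower and 1 was higher by more than 1.1-fold, beside 35.7% of all 10489 genes lower and 37.4% higher. At 12 kPa, 3 were lower and 1 was higher, beside 35.9% lower and 37.6% higher. The median log2 ratio of shSrf to control over these members was -0.97 at 0.5 kPa and -0.27 at 12 kPa, against 0.011 and 0.0098 over all genes. More than 2-fold, 3 of the 6 were lower and none higher at 0.5 kPa, beside 2.86% and 2.45% of all genes. At 12 kPa 1 was lower and 1 higher, beside 2.22% and 2.74%.

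Igfbp3 encodes the binding protein that carries most IGF in blood and lies on chromosome 11 of mm10 from 7206086 to 7215498. Its FPKM was 216 and 194 in control NPCs at 0.5 and 12 kPa, and 57.1 and 78.9 in shSrf NPCs. Both shSrf values were well below the lower control value. It was 3.78-fold lower at 0.5 kPa (log2 ratio -1.92, SE 0.025) and 2.46-fold lower at 12 kPa (-1.30, SE 0.022). These were the 44th and the 119th lowest of the 10489 log2 ratios. Igfbp3 had the widest range of the 6 members over the 4 libraries, 1.92 on the log2 scale.

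Igfbp7 encodes a related secreted protein of blood vessels and senescent cells that binds IGFs weakly (chromosome 5, 77349240 to 77408045). Its FPKM was 38.7 and 36.1 in control and 14.5 and 19.8 in shSrf NPCs. The log2 ratio of shSrf to control was -1.42 (SE 0.074) at 0.5 kPa and -0.87 (SE 0.067) at 12 kPa. The gene overlaps Polr2b, a subunit of RNA polymerase, whose FPKM was 60.8 and 54.0 in control and 39.3 and 48.9 in shSrf NPCs, and although the library kit keeps the strand, the strand setting of the counting is not given in the sources used here. Igf1 and Igf1r overlap long noncoding genes.

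Igfbp6, whose protein prefers IGF2 over IGF1, went the other way (chromosome 15, 102144186 to 102149512). Its FPKM was 58.4 and 49.8 in control and 92.5 and 108 in shSrf NPCs. The log2 ratio was 0.66 (SE 0.043) at 0.5 kPa and 1.11 (SE 0.047) at 12 kPa, where it was the 203rd highest of all genes. Genes of high GC content were higher in shSrf NPCs in general: the median log2 ratio was 0.22 at 0.5 kPa and 0.35 at 12 kPa in the 957 genes with the highest GC content, and -0.18 and -0.28 in the 957 with the lowest. The Igfbp6 transcript has a GC content of 60.7%, and ratios centred within 50 GC bins were 0.40 and 0.73.

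Igfbp4, which mostly restrains IGF action and is cut by the protease PAPP-A, had an FPKM of 1045 and 843 in control and 712 and 790 in shSrf NPCs (99040005 to 99052655 on chromosome 11). Only the 0.5 kPa pair stood well apart, with a log2 ratio of -0.55 (SE 0.0084), while that at 12 kPa was -0.09 (SE 0.0087) and within 1.1-fold. Centred by GC bin, the ratios were -0.74 and -0.42, so that the call at 12 kPa depends on this step. Igfbp4 ranked between the 63rd and the 132nd most abundant of the 21862 genes in all 4 libraries.

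Igfbp5, a binding protein that attaches to matrix (chromosome 1, 72858065 to 72874865), was left out of the counts above because it was under an FPKM of 2 in shSrf NPCs. Its FPKM was 5.46 and 4.44 in control and 1.65 and 1.91 in shSrf NPCs. The log2 ratio was -1.73 (SE 0.084) at 0.5 kPa and -1.22 (SE 0.080) at 12 kPa, close in size to that of Igfbp3. Igfbp2, which lies 5590 bases from Igfbp5 on the same chromosome (72824480 to 72852474), was under 2 in every library, with an FPKM of 0.652 and 1.05 in control and 0.505 and 0.928 in shSrf NPCs. At an estimated 19.5 to 59.5 reads its log2 ratios of -0.37 (SE 0.44) and -0.18 (SE 0.34) could not be told from 0. Igfbp1, the neighbour of Igfbp3 at a distance of 3539 bases, was at or near 0 in all libraries, at most 0.0778.

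The genes are set beside their promoters because Igfbp3 and Igfbp7 were lower and Igfbp6 was higher after knockdown of a DNA-binding factor. The 250 bases before the transcript start in the RefSeq table (GRCm38.p6) are given 5′ to 3′ on the strand of the gene, with capitals for every match to TATAAA (the TATA box), GGGCGG (Sp1), CCAAT (NF-Y), TGAGTCA (AP-1), TGTTTAC (FoxO), CATTCC (TEAD) or the CArG box, which Srf binds, on either strand. The annotated extent of Igfbp3 reaches beyond the start used here.
Igfbp3, chr11:7213924-7214173, minus strand: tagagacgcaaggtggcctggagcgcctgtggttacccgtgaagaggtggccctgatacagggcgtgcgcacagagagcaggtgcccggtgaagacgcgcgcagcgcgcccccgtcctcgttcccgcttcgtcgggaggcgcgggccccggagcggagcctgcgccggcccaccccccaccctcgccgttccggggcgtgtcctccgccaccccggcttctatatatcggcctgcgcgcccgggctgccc
Igfbp7, chr5:77408046-77408295, minus strand: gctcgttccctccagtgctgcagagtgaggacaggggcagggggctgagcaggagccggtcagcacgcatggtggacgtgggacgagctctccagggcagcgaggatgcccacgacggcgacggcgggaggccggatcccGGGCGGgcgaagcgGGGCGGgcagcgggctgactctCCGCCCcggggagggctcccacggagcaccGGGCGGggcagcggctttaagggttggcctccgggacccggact
Igfbp6, chr15:102143936-102144185, plus strand: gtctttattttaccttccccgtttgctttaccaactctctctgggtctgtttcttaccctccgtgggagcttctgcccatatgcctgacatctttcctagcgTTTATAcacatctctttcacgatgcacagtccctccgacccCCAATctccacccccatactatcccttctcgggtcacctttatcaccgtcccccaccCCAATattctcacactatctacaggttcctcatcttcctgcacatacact

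None of these motifs matched letter for letter in the Igfbp3 sequence. Variants of them, such as the tatata stretch near the end of that sequence, were not searched. Igfbp7 held 4 matches to GGGCGG, a sequence found in 32.7% of the 32851 promoters in the table, and none of its matches overlap. Igfbp6 held 2 matches to CCAAT (33.8% of promoters) and 1 to TATAAA (12.4%) on the reverse strand. GC content was 73.2% for Igfbp3, 74.0% for Igfbp7 and 49.6% for Igfbp6. Of the 9 members, 8 had a promoter in the table, and Insr had none. Over their 9 promoters no CArG box was found. The box was present in 1.47% of all promoters, and the Srf promoter itself held 2. A promoter of the ligand gene Igf2, which is not a member, held a CArG box at position -155 from the start. TGAGTCA, present in 4.46% of promoters, matched in 1 of the Igfbp2 promoters, and CATTCC, present in 12.6%, in that of Igfbp5, while TGTTTAC, present in 3.17%, matched in no member. A match describes letters within this window only.

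For the receptor gene Igf1r on chromosome 7 (67952257 to 68233668), FPKM was 17.0 and 15.8 at 0.5 and 12 kPa in control, and 6.50 and 11.7 in shSrf NPCs. The shSrf library at 0.5 kPa was the lowest and both control libraries were the highest. The log2 ratio of shSrf to control was -1.39 (SE 0.055) at 0.5 kPa, the 123rd lowest of all genes, and -0.44 (SE 0.047) at 12 kPa. Insr, which encodes the insulin receptor (3150922 to 3279649 on chromosome 8), stood at 5.20 and 4.31 FPKM in control and at 4.30 and 3.995 in shSrf NPCs. Its log2 ratio was -0.28 (SE 0.071) at 0.5 kPa and -0.11 (SE 0.077) at 12 kPa, within 1.1-fold. Igf1r exceeded Insr 3.26-fold and 3.67-fold in control NPCs, and 1.51-fold and 2.92-fold in shSrf NPCs.

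Igf1 (chromosome 10, 87858265 to 87937047) was under an FPKM of 2 in control NPCs and thus outside the counts. Its FPKM was 0.961 and 1.07 in control and 2.72 and 4.39 in shSrf NPCs, all higher than either control value. It was 2.83-fold higher in shSrf NPCs at 0.5 kPa and 4.11-fold at 12 kPa, with an SE of 0.28 and 0.27 on the log2 scale. With a pseudocount of 1 the log2 ratios were 0.92 and 1.38. The estimated reads were 33.3 and 30.7 in control and 146 and 326 in shSrf NPCs, and they are approximate because the 9 annotated transcripts of this gene differ widely in length. The other ligand gene, Igf2, was far more abundant, with an FPKM of 94.9 and 75.3 in control and 106 and 169 in shSrf NPCs. Its log2 ratio was 0.15 (SE 0.020) at 0.5 kPa and 1.17 (SE 0.022) at 12 kPa.

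**Figure D2:**
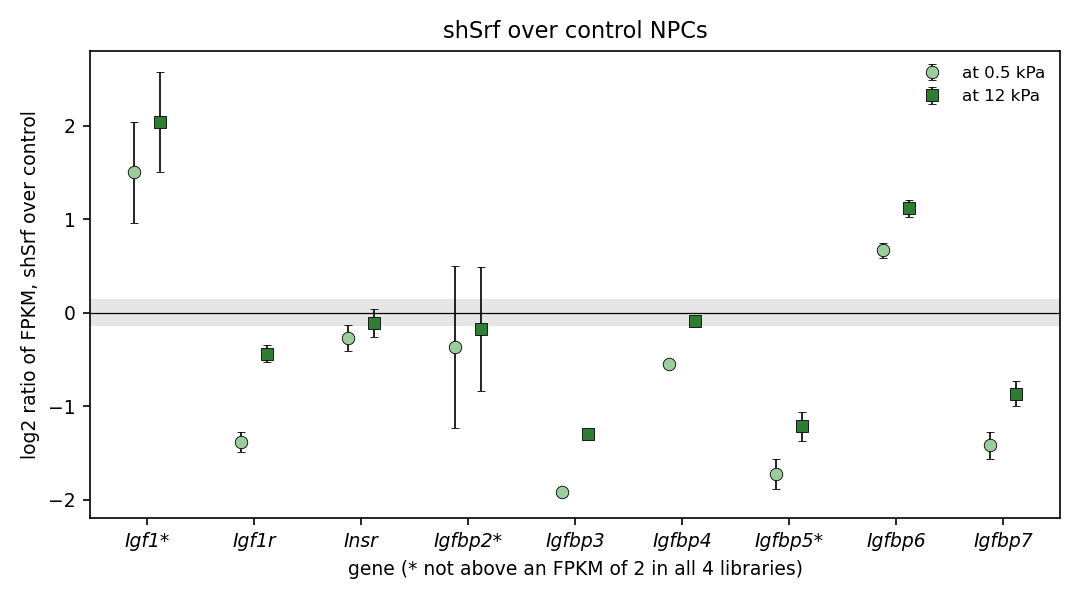
Log2 ratio of FPKM in shSrf over control NPCs for the 9 IGF genes at 0.5 kPa (circles) and 12 kPa (squares), with bars for the 95% counting interval and a grey band for ratios within 1.1-fold. Igf1r, Igfbp3, Igfbp5 and Igfbp7 lie below the band at both stiffnesses, and Igf1 and Igfbp6 above it. Both Igfbp2 points also lie below the band, with intervals that include 0.

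These differences altered the make-up of the binding protein transcripts. The summed FPKM of Igfbp1 to Igfbp7 was 1365 and 1128 in control NPCs and 878 and 999.7 in shSrf NPCs. Igfbp3 made up 15.8% and 17.2% of this sum in control and 6.50% and 7.89% in shSrf NPCs, while Igfbp6 made up 4.28% and 4.42% against 10.5% and 10.8%. Igfbp3 exceeded Igfbp6 by 3.70-fold and 3.89-fold in control NPCs, and in shSrf NPCs Igfbp6 exceeded Igfbp3 by 1.62-fold and 1.37-fold. Igfbp4 held between 74.7% and 81.1% in every library. Set against the sum of Igf1 and Igf2, the binding protein transcripts were 14.2-fold and 14.8-fold more abundant in control NPCs, and 8.12-fold and 5.77-fold in shSrf NPCs at 0.5 and 12 kPa. These are shares of transcripts per length and not of protein.

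**Figure D3:**
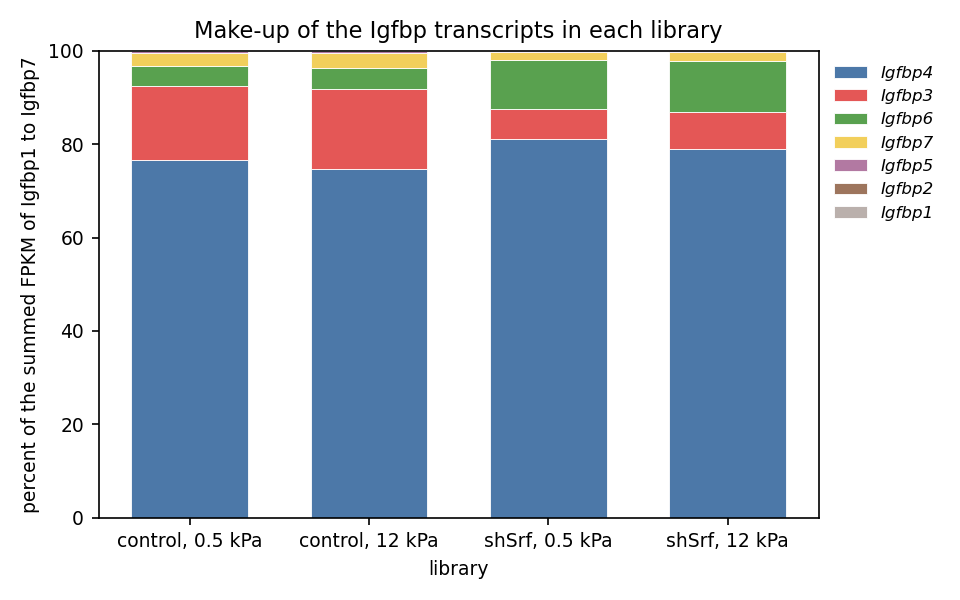
Percent of the summed FPKM of Igfbp1 to Igfbp7 that each gene took in each library, as stacked bars. Igfbp4 takes most of every bar, the Igfbp3 segment is larger in the control bars and the Igfbp6 segment larger in the shSrf bars, and Igfbp1, Igfbp2 and Igfbp5 together are under 1% and hardly visible.

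The second comparison asked how matrix stiffness related to these genes. In control NPCs all 6 members above the minimum had a lower FPKM on the 12 kPa than on the 0.5 kPa matrix, and 4 of them, Igfbp4, Insr, Igfbp6 and Igfbp3, by more than 1.1-fold. Of all 10489 genes, 5144 were lower by any amount. By more than 1.1-fold, 16.9% of all genes were lower and 17.9% were higher, whereas no member was higher. The log2 ratio of 12 to 0.5 kPa was -0.31 (SE 0.0095) for Igfbp4, -0.27 (SE 0.084) for Insr, -0.23 (SE 0.057) for Igfbp6 and -0.15 (SE 0.020) for Igfbp3. Igf1r and Igfbp7 were within 1.1-fold, both at -0.10. The median over the members was -0.19, against 0.0030 over all genes. With a threshold of 1.2-fold only Igfbp4 and Insr were left.

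In shSrf NPCs 5 of the 6 members, all but Insr, were higher on the 12 kPa matrix, beside 17.6% of all genes higher and 13.0% lower. For Igf1r the log2 ratio was 0.85 (SE 0.051), the 13th highest of the 10489 genes. It was 0.47 (SE 0.026) for Igfbp3, 0.45 (SE 0.073) for Igfbp7, 0.22 (SE 0.030) for Igfbp6 and 0.15 (SE 0.0075) for Igfbp4. Insr had -0.10 (SE 0.063), within 1.1-fold. The median over the members was 0.33, against 0.0064 over all genes. In these libraries the genes of highest GC content had a median of 0.093 and those of lowest -0.060, and centring by GC bin brought Igfbp6 (0.12) and Igfbp4 (0.071) within 1.1-fold, which left 3 of 6.

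Outside the counts, the stiffness ratio of Igfbp5 was -0.30 (SE 0.075) in control and 0.21 (SE 0.088) in shSrf NPCs. Igf1 had 0.15 (SE 0.36) and 0.69 (SE 0.14), and Igfbp2 had 0.69 (SE 0.43) and 0.88 (SE 0.35), so that neither could be told from 0 in control NPCs by counting alone. The difference between the stiffness ratios, shSrf less control, was 0.95 (SE 0.072) for Igf1r, 0.62 (SE 0.033) for Igfbp3, 0.55 (SE 0.0995) for Igfbp7, 0.46 (SE 0.012) for Igfbp4, 0.45 (SE 0.064) for Igfbp6 and 0.17 (SE 0.10) for Insr. For Insr it could not be told from 0 by counting alone. The difference equals the change of the shSrf to control ratio from 0.5 to 12 kPa, so it is not a further observation. With 1 library for each condition it was not tested. The 4 libraries also differ in depth, which cannot be told apart from the groups.

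**Figure D4:**
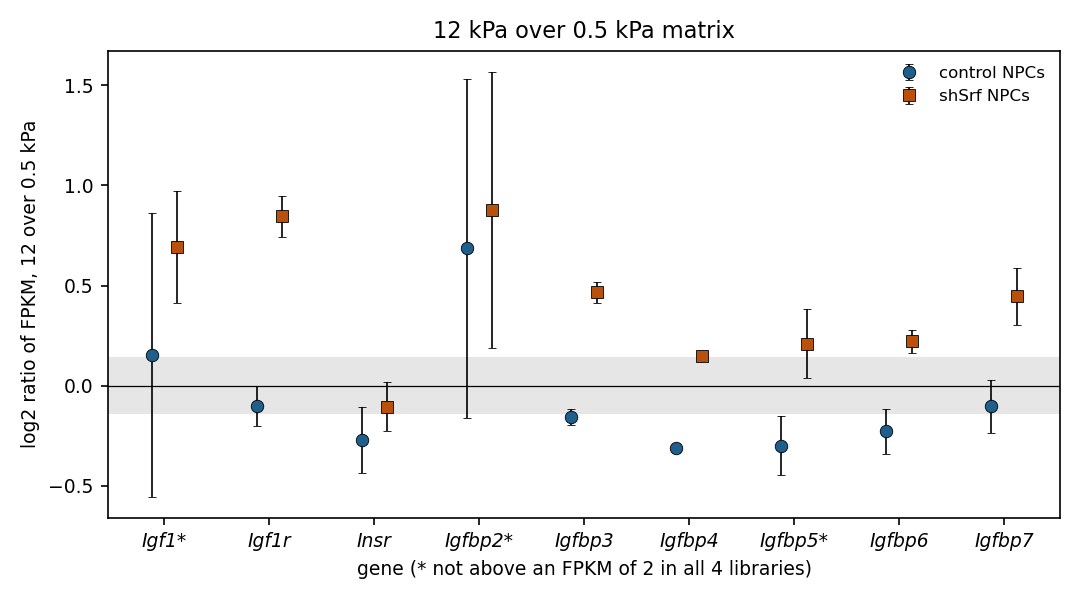
Log2 ratio of FPKM on the 12 kPa over the 0.5 kPa matrix for the 9 IGF genes in control NPCs (circles) and shSrf NPCs (squares), with bars for the 95% counting interval and a grey band for ratios within 1.1-fold. The shSrf point lies above the control point by 0.95 for Igf1r and by 0.17 for Insr, whose counting intervals overlap.

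Beyond the members, 73 further genes of the pathway were examined, of which 51 were above the minimum. Between shSrf and control NPCs 20 were higher and 20 lower at 0.5 kPa, 39.2% each, which is close to the 37.4% and 35.7% of all genes. At 12 kPa 21 were higher (41.2%) and 17 lower (33.3%), against 37.6% and 35.9%, and the medians were 0.017 and 0.028. Between the matrices 10 were higher and 10 lower at 12 kPa in control NPCs, 19.6% each, against 17.9% and 16.9% of all genes. In shSrf NPCs 17 were higher (33.3%) and 3 lower (Grb2, Rheb and Txnip, 5.88%), against 17.6% and 13.0%, and the medians were -0.011 and 0.075.

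Ligand and receptor genes other than the members were few. Ins1 and Ins2, which encode insulin, were listed at 0 in all 4 libraries. Igf2r, the receptor that clears IGF2, was named after its values were seen. Its FPKM was 2.21 and 2.34 in control and 1.12 and 0.958 in shSrf NPCs, with log2 ratios of -0.98 (SE 0.47) and -1.29 (SE 0.46). These SEs rest on a median length of 532 bases over 4 annotated transcripts. They are too large if the reads came from longer transcripts.

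Of 9 proteases that cut binding proteins and their inhibitors, 5 were above the minimum, and 3 were higher and 2 lower in shSrf NPCs at both stiffnesses, where 37.4% and 37.6% of all genes were higher and 35.7% and 35.9% lower. With 5 genes such counts say little. Htra1, a secreted serine protease with an IGFBP-like domain, had an FPKM of 252 and 225 in control and 82.2 and 95.6 in shSrf NPCs, with log2 ratios of -1.62 (SE 0.021) and -1.23 (SE 0.020). Adam9, a membrane protease, had -0.38 and -0.40. Adamts1, a metalloprotease of the ADAMTS family, had an FPKM of 73.0 and 86.9 in control and 175 and 189 in shSrf NPCs, with log2 ratios of 1.26 (SE 0.019) and 1.12 (SE 0.019). Stc1, whose product stanniocalcin inhibits PAPP-A, had log2 ratios of 0.91 (SE 0.040) and 1.18 (SE 0.046). The third that was higher was Htra3, a relative of Htra1, with an FPKM of 4.05 and 2.50 in control and 4.85 and 6.33 in shSrf NPCs. Pappa, the gene of PAPP-A, was named after its values were seen and was under the minimum. Its FPKM was 0.216 and 0.245 in control and 0.570 and 0.612 in shSrf NPCs, with log2 ratios of 1.40 (SE 0.19) and 1.32 (SE 0.19).

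Of 14 genes listed as adaptors, which include the phosphatase genes Ptpn1 and Ptpn11, 11 were above the minimum. At 0.5 kPa 4 were higher (Shc1, Grb2, Sh2b1, Sos1) and 5 lower (Irs2, Grb10, Grb14, Ptpn1, Ptpn11). At 12 kPa 3 were higher (Irs1, Sh2b1, Sos1) and 4 lower (Irs2, Grb10, Grb14, Ptpn11). These are 36.4% and 45.5% of the 11 at 0.5 kPa, against 37.4% and 35.7% of all genes, and 27.3% and 36.4% at 12 kPa, against 37.6% and 35.9%. Grb10, an adaptor that binds Igf1r and Insr and restrains them, had an FPKM of 49.1 and 50.7 in control and 18.9 and 26.9 in shSrf NPCs. Its log2 ratio was -1.37 (SE 0.044) at 0.5 kPa and -0.92 (SE 0.038) at 12 kPa. Grb14, its relative, had -0.94 (SE 0.17) and -0.54 (SE 0.16), while Sh2b1 had 0.34 and 0.51 and the Ras activator Sos1 had 0.26 and 0.29.

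Of 25 PI3K and Akt genes, 22 were above the minimum, with 5 higher (Pik3r2, Akt2, Gsk3a, Tsc2, Foxo1) and 9 lower at 0.5 kPa and 9 in each direction at 12 kPa. These are 22.7% and 40.9% at 0.5 kPa, against 37.4% and 35.7% of all genes, and 40.9% each at 12 kPa, against 37.6% and 35.9%. None of them passed 2-fold. Mtor had log2 ratios of -0.83 (SE 0.050) and -0.40 (SE 0.052). Gsk3a, a kinase that Akt inhibits, had 0.55 and 0.54, and the PI3K subunit Pik3r2 had 0.26 and 0.33.

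Of 20 genes known as targets of FoxO factors, which Akt keeps out of the nucleus, 14 were above the minimum, with 7 higher and 6 lower at 0.5 kPa (50% and 42.9%, against 37.4% and 35.7% of all genes). At 12 kPa 5 were higher (Pdk4, Txnip, Cited2, Bcl2l11, Cdkn1b) and 3 lower (Irs2, Fbxo32, Sod2), or 35.7% and 21.4%, against 37.6% and 35.9% of all genes. Txnip, a regulator of glucose uptake, had log2 ratios of 1.55 (SE 0.028) and 1.11 (SE 0.027), and Cited2 had 0.41 and 0.48. Fbxo32, a ubiquitin ligase subunit, had -1.79 (SE 0.096) and -1.33 (SE 0.084), and Gadd45a had -0.68 and -0.06. Insr, described above, is also on this list.

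**Figure D5:**
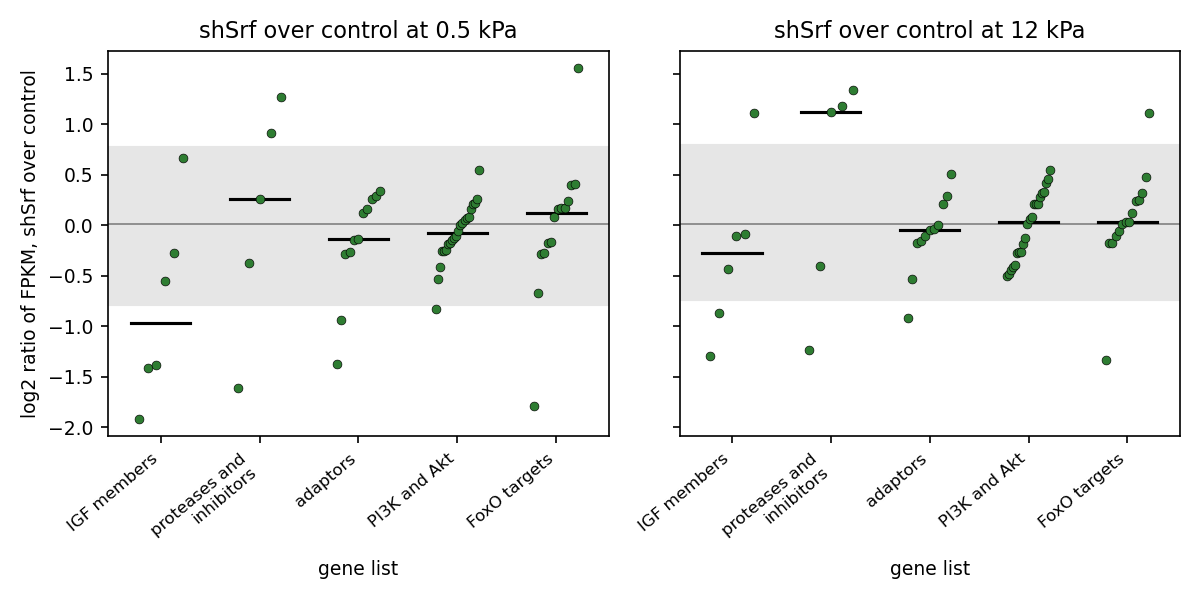
Log2 ratio of FPKM in shSrf over control NPCs at 0.5 kPa (left) and 12 kPa (right) for each gene above the minimum, by gene list, with a black line at the list median, a grey line at the median of all genes and a grey band from the 5th to the 95th percentile of all genes. Adaptor, PI3K and Akt and FoxO target genes mostly lie within the band, and at 0.5 kPa 3 of the 6 IGF members lie below it.

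The genes most like Igfbp3 over the 4 libraries were sought by the Euclidean distance between log2 FPKM centred on the mean of each gene. The nearest 5 of the included genes were Fbxo32 (distance 0.11), the water channel Aqp1 (0.17), the transcription factor Mecom (0.19), the basement membrane collagen Col4a2 (0.20) and Igsf23 (0.21). For Col4a2, FPKM was 146 and 120 in control and 38.1 and 45.0 in shSrf NPCs. With 4 libraries, such a distance rests mainly on the difference between the cell populations.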

How the data were processed

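RNA-seq was performed on 4 libraries, 1 for each condition. The authors trimmed single-end reads with cutadapt 1.9.1, mapped them to mm10 with TopHat2 2.1.0 and Bowtie2 2.2.8 using the GENCODE version M14 annotation, kept reads with a MAPQ of at least 20 and deposited FPKM, which the methods call RPKM, for each gene from Cufflinks 2.2.1 (versions per the submitters' processing notes). FPKM hides depth, and its precision here rests on an estimate. Symbols occurring more than once (63) were left out. Log2 ratios were computed without rescaling or pseudocount, and no test was made. The relative depth was the commonest ratio between libraries of FPKM values under 0.1. The value of 1 read in 394 genes with a single transcript gave the reads, with 200 bases taken off the transcript length. Reads of a gene rest on the median length of its GENCODE M1 protein-coding transcripts, matched by symbol. Counting errors are Poisson errors of these reads. Both steps were tested on data simulated with the same lengths and Poisson counting, which cannot show whether these lengths suit the deposited FPKM. The members and gene lists were chosen with earlier results of these data known. Genes named beyond the members are, in each list, the 2 largest rises and 2 largest falls in the mean shSrf to control ratio, the genes on which small counts turn, and the 5 nearest in profile, and 1 gene that this rule picks is not reported here. Alternatives were minimum FPKM values of 1 and 5 or none, a pseudocount of 1, centring on the median or within GC bins, a common 75th percentile, and fold thresholds of 1.2, 1.5 and 2. Coordinates are those of RefSeq on GRCm38.p6 (mm10). Protein sequences were not analysed here. Python 3.11.15, numpy 2.4.6, pandas 2.3.3 and matplotlib 3.10.9 were used.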

Additional observations from a re-analysis of the deposited data

Results flagged for a closer look

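The genes named below moved by more than 1.1-fold in opposite directions from the 0.5 to the 12 kPa matrix in control and in shSrf NPCs. Of all 10489 genes above the minimum, 630 did so, or 6.01%, and of the 6 members above it, 3. The genes outside the members were picked for their ratios, a profile near Igfbp3 or overlap with a member. Their number therefore cannot be set against this share. Without replicates the difference was not tested. Given as the log2 ratio in shSrf less that in control NPCs, it was 0.62 for Igfbp3, 0.46 for Igfbp4, 0.45 for Igfbp6 and 0.51 for Igfbp5, which was under the minimum in shSrf NPCs. It was 1.01 for Igf2 (-0.33 in control and 0.68 in shSrf NPCs), 0.38 for Htra1 (-0.16 and 0.22), 1.08 for Htra3 (-0.69 and 0.38) and 0.61 for Gadd45a (-0.37 and 0.24). For genes near Igfbp3 in profile it was 0.90 for Aqp1 (-0.37 and 0.53) and 0.53 for Col4a2 (-0.28 and 0.24), and for Polr2b, which overlaps Igfbp7, it was 0.49 (-0.17 and 0.32). Txnip moved the other way, with a difference of -0.44 (0.26 and -0.18). Centred by GC bin, the ratio in shSrf NPCs was within 1.1-fold for Igfbp4 (0.071) and Igfbp6 (0.12).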

How the results depend on the processing

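No paired analysis was possible because there was a single library per group. Over 4 scaling, centring and pseudocount alternatives, 17 of the 144 recomputed log2 ratios of the 9 members moved by more than the 95% counting interval. All kept their direction, but a pseudocount cannot reverse a ratio. Centring on the median or scaling to a common percentile shifted all ratios of a comparison by an equal, small amount. The smallest ratio, Igfbp4 between shSrf and control NPCs at 12 kPa, went from -0.092 to -0.10 under both. Only centring within GC bins could thus have reversed a direction. It took Insr in that comparison from -0.11 to -0.0048. The fold threshold changed the counts most, as a higher threshold can only lower them. In control NPCs, 4 members were past 1.1-fold between the matrices, 2 past 1.2-fold and 0 past 1.5 and 2-fold. In shSrf NPCs these were 5, 3, 1 and 0, and 3 after centring within GC bins, which was the single scaling that changed a count of members by over 1.5 times. Between shSrf and control NPCs, 3 members were past 2-fold at 0.5 kPa (6 past 1.1-fold) and 2 at 12 kPa (4 past 1.1-fold). Of the further pathway genes, 20 were past 1.1-fold between the matrices in control NPCs, 8 past 1.2, 1 (Htra3) past 1.5 and 0 past 2-fold. In shSrf NPCs these were 20, 7, 1 (Igf2) and 0. Between shSrf and control NPCs they were 40, 19, 9 and 5 (Htra1, Adamts1, Grb10, Fbxo32, Txnip) at 0.5 kPa, and 38, 28, 8 and 7 at 12 kPa. The other alternatives left every count within 1.5 times its value. Depth limits Igf1 and Igfbp2, whose counting errors reach 0.36 and 0.44.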
